A study of Mus musculus with 4 samples.

Results

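Thbs1, Fn1, Bgn and Sparc are 4 genes for secreted proteins of the extracellular matrix that fibroblasts make in large amounts. All rows named for them were taken from the 2 lists of candidate spliced regions made with Read-Split-Walk (RSW), 1 list for each experiment. The genes were chosen by a measured value of these data, the number of regions in the Dtt list, in which Thbs1, Fn1 and Bgn rank highest, and Sparc was added as a gene of the same class. They hold 47 of 2533 regions in the Dtt list and 1 of 55 in the Tg list, or 48 in both lists. Because the number of regions chose the members, it is given as a description and carries no test. Just inside that choice stands Bgn, with 9 regions, and just outside it Actg1, with 7.

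The study compared mouse embryonic fibroblasts (MEFs) of the C57BL/6 strain that were Ire1α heterozygous (Het) or Ire1α knockout (KO), with 1 library for each of the 4 groups. In the Tg experiment the Het cells were kept for 4 hours in 500 nM thapsigargin, an inhibitor of calcium uptake into the endoplasmic reticulum (ER), and the KO cells carried a floxed allele that loses the kinase domain of Ire1α. In the Dtt experiment the Het cells were kept for 4 hours in 1 mM dithiothreitol, a reducing agent that breaks disulfide bonds, and the KO cells carried another null allele with a more complete deletion. The sample labels call both KO groups untreated, whereas the study's methods state that both genotypes were treated. The methods describe a single line of MEFs for each experiment. The lists give supporting reads in the Het library only, at least 2 for each region. Regions matched in the KO library were removed by the authors, so no value for the 4 genes can be set against the KO cells. The lists hold no expression levels. The fibroblast label could therefore not be checked against marker genes, and whether the number of regions follows the amount of each mRNA was not tested.

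Ire1α is a sensor of unfolded proteins in the ER whose RNase cuts a short intron out of Xbp1 mRNA in the cytoplasm, without the spliceosome. The same RNase also degrades some mRNAs of secreted proteins, and Sparc is a well-known target of that decay in fibroblasts. Matrix glycoproteins are translated at the ER, where they are folded and disulfide bonded before secretion. Thrombospondin 1 (Thbs1) is a trimeric matricellular protein that binds cells and other matrix proteins, fibronectin (Fn1) forms fibrils to which integrins attach, biglycan (Bgn) is a small leucine-rich proteoglycan that binds collagen, and Sparc is a calcium- and collagen-binding matricellular protein.

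Of the 47 Dtt regions of the 4 genes, 36 had a splice length of 2 to 9 bp and 11 were longer. That is 76.6% short regions (95% Wilson interval 62.8 to 86.4%, which covers counting error only). Over the whole Dtt list, 442 of 2533 regions were short, or 17.4%. Among all other genes the share was 16.3% (406 of 2486). The number of regions chose 3 of the genes, and short regions make up most of that number, so the share is not independent of the choice. Of the 36 short regions, 32 removed 2 bp and 4 removed more. The longest short region was 7 bp, in Fn1, and the shortest of the longer ones was 14 bp, in Bgn, so none of them lay close to the limit of 9 bp. The 4 genes held 8.14% of all short regions in the list and 0.526% of the longer ones.

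Most of these regions rested on few reads. In all, the 47 regions had 139 supporting reads, which is 2.16% of the 6436 reads in the list. The median was 2 reads, and 36 of the 47 regions had exactly 2. The authors propose that regions with 2 to 4 reads are likely false positives. Of the 47, only the regions with 23, 10, 7 and 5 reads named below exceed that range. Regions with 3 or more reads made up 23.4% (11 of 47, Wilson interval 13.6 to 37.2%), beside 23.6% in the whole list. The share of better supported regions in the 4 genes was therefore at the level of the list. For scale, the Xbp1 region had 173 reads and rank 1, and the best supported region of the 4 genes, in Sparc, had 23 reads and rank 4. The next ones were a Sparc region with 10 reads at rank 14, a Thbs1 region with 7 at rank 28 and an Fn1 region with 5 at rank 55.

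**Figure D1:**
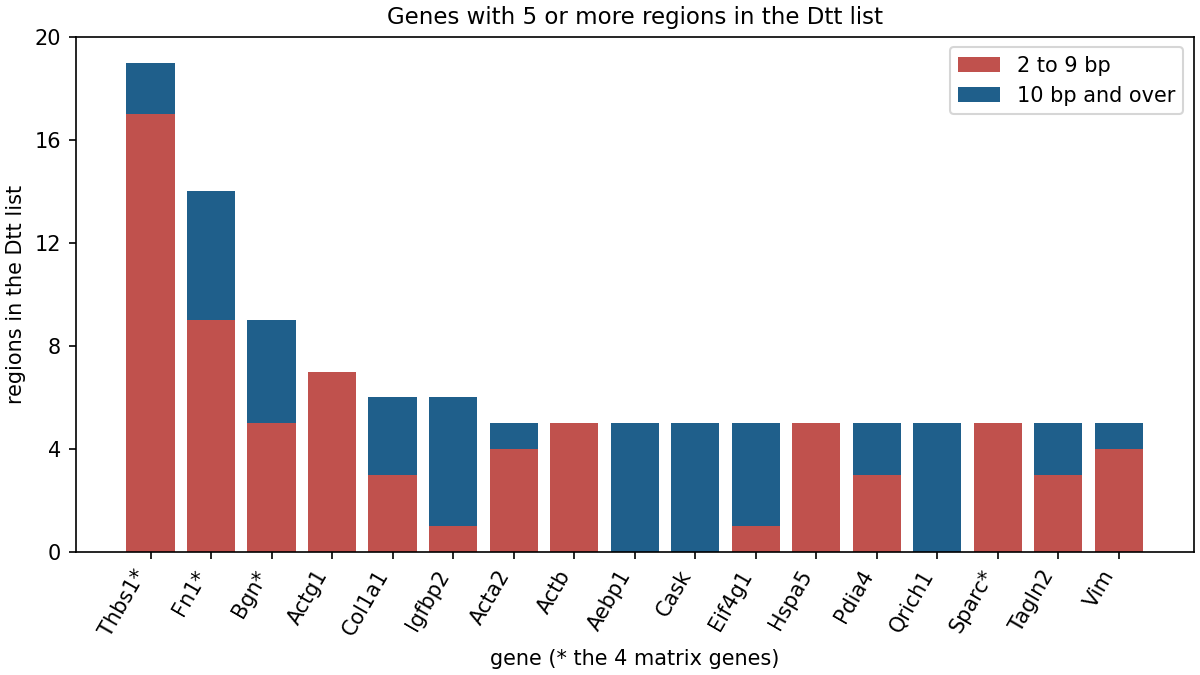
Number of regions in the Dtt list (vertical axis) for each gene with 5 or more, split into regions of 2 to 9 bp and of 10 bp and over; asterisks mark the 4 matrix genes. Thbs1 had 19 regions, 17 of them short, Fn1 had 14, Bgn 9 and Sparc 5, and each bar is a count from 1 Het library with no error bar.

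Thbs1 (ENSMUSG00000040152.8) lies on the plus strand of mm9 at chr2:117937612-117952869. Its transcript Thbs1-001 has 22 exons and 5848 nt, of which 3513 nt are coding and 2107 nt are 3′ UTR. It had 19 Dtt regions with 49 reads, of which 17 were short with 45 reads. Of the short ones, 14 removed 2 bp. These 17 regions were spread over most of the mRNA, from 5110 to 500 nt from its 3′ end as measured at their midpoints. The coding sequence held 7 of them, in exons 3, 10, 12, 13, 16, 18 and 19, and the 3′ UTR, all in exon 22, held 10. The region nearest the 3′ end had the most reads, 7, and another UTR region had 4. In all, 4 regions of Thbs1 had 3 reads, and the other 13 had 2.

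Sequence around 4 of the short Thbs1 regions is shown because they differ in what the gap can slide over. All are plus strand sequence of the mm9 assembly, read 5′ to 3′. In the first, the region with 7 reads, chr2:117952351-117952380, capitals mark its longest single-base run. In the others capitals mark the bases within which the removed bases can lie without changing the joined sequence. These are the 4 bp region, chr2:117951671-117951700, the exon 16 region, chr2:117946923-117946952, and the UTR region at chr2:117950797-117950826.
Thbs1 7 reads: tactgttgtgtctAAAAAgtcggtgttgta
Thbs1 4 bp: TTTCTTTCTTTCTTTCTTTCTTTCTTTCTT
Thbs1 exon 16: ggttggagatcaGTGTGacaactgccccct
Thbs1 UTR, 2 reads: aatgcaccttctAAAAAcaagggctagaga
The 4 bp region, with 3 reads, takes in 30 nt of repeated TTTC, and losing any 1 copy gives the same joined sequence. The exon 16 and UTR regions each removed 2 bp on 2 reads, and 1 gap accounts for all 4 placements in each.

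Fn1 (ENSMUSG00000026193.8) lies on the minus strand at chr1:71632094-71699774. The Fn1 transcript with the longest coding sequence has 46 exons and 8312 nt, of which 7431 nt are coding and only 692 nt are 3′ UTR. It had 14 Dtt regions with 31 reads, of which 9 were short with 21 reads. Among the short ones, 8 removed 2 bp and 1 removed 7 bp. The 3′ UTR held 4 and the coding sequence 5, in exons 26, 31, 32, 33 and 38. All 9 lay within 3910 nt of the 3′ end, nearer to that end of this long mRNA than to the 5′ end. Only 1 region of Fn1 had more than 2 reads, a UTR region with 5. Its sequence, chr1:71632502-71632531 on the minus strand, is shown to set its run of A (capitals) beside the longer one of Sparc.
Fn1 5 reads: agagaatcAAAAgttcttatggtttggtct

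Bgn (ENSMUSG00000031375.10) lies on the plus strand at chrX:70728941-70741272. Transcript Bgn-001 has 8 exons and 2377 nt, with 1107 nt coding and 1140 nt of 3′ UTR. It had 9 Dtt regions with 19 reads. Of these, 5 were short with 10 reads, all of 2 bp and all in the 3′ UTR of exon 8, between 921 and 506 nt from the 3′ end. No short region of Bgn had more than 2 reads. Of the 4 longer ones, a 14 bp region had 3 reads and the others had 2. The 14 bp and 26 bp regions share 1 pair of boundaries and lie in a repeat of 25 copies of AC, 50 nt long, at chrX:70740809-70740858. The start of that repeat, chrX:70740801-70740830, is shown with the repeat in capitals, beside the single short Bgn region that 1 gap accounts for, chrX:70740515-70740544, where capitals mark the bases within which the gap slides.
Bgn 14 and 26 bp: ctctgacaACACACACACACACACACACAC
Bgn 2 bp, 1 gap: tgctgcccttatcCTCTggtgttctctctt

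Sparc (ENSMUSG00000018593.6) lies on the minus strand at chr11:55208002-55233582. Transcript Sparc-001 has 10 exons and 2300 nt, with 906 nt coding and 1088 nt of 3′ UTR. Its 5 Dtt regions, with 40 reads, all removed 2 bp and all lay in the 3′ UTR of exon 10. They had 23, 10, 3, 2 and 2 reads, so Sparc had the fewest regions of the 4 genes and the highest reads of any of their regions. The 2 best supported regions share their upper boundary, 55208938, and both take in the same run of 16 A, at chr11:55208923-55208938. The lower boundary of the region with 23 reads lies 18 bp from it and that of the region with 10 reads 62 bp from it. The run is shown in capitals in the mRNA strand of chr11:55208916-55208945.
Sparc 23 reads: cggtgctAAAAAAAAAAAAAAAAcaaagta
Within the boundaries of the region with 23 reads, 17 placements of a 2 bp gap were possible and 15 of them lie in the run and give the same joined sequence.

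**Figure D2:**
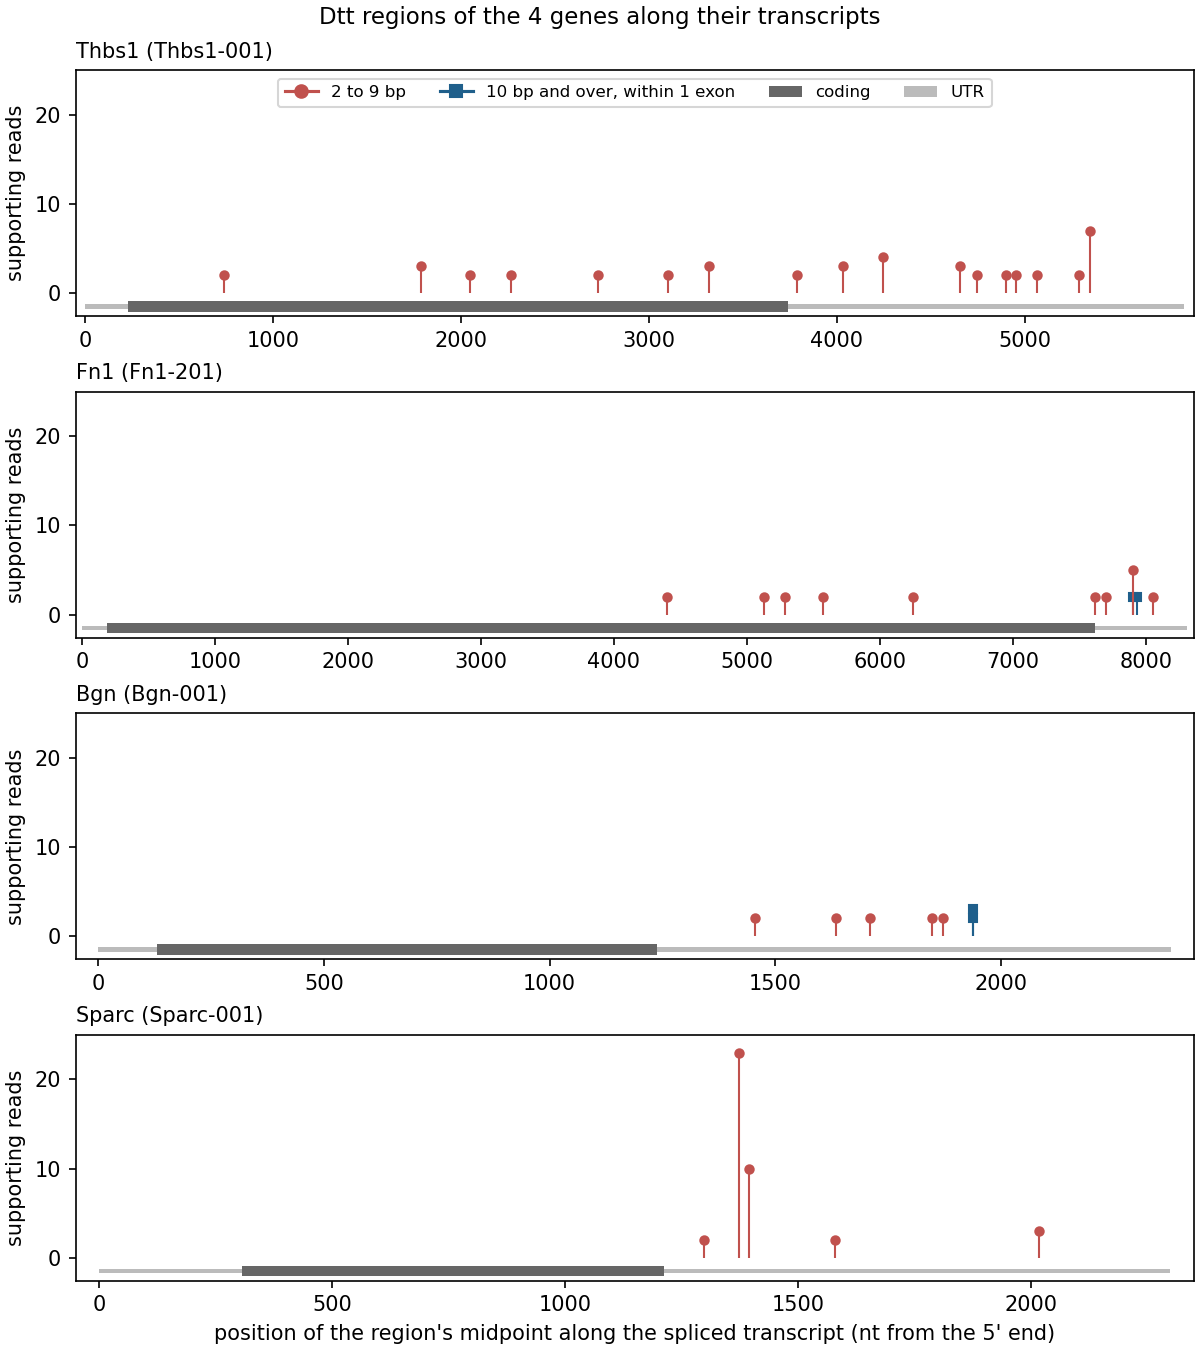
Supporting reads (vertical axis) of each Dtt region that lies within 1 exon, at its midpoint along the spliced transcript (horizontal axis, nt from the 5′ end); thick dark bars are coding sequence and thin light bars are UTR. Short regions of Sparc and Bgn sat in the 3′ UTR, those of Fn1 within 3910 nt of the 3′ end, and those of Thbs1 reached exon 3; the highest point is the Sparc region with 23 reads.

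The short regions of Thbs1 and Fn1 lay in both coding sequence and 3′ UTR, and those of Bgn and Sparc in the 3′ UTR alone. Together, 24 of the 36 lay in the 3′ UTR, or 66.7% (Wilson interval 50.3 to 79.8%), beside 54.5% of all short regions of the list. The other 12 lay in coding sequence, 33.3% (20.2 to 49.7%) beside 31.7%. Both intervals take in the value of the list. By gene, the UTR share was 58.8% for Thbs1 and 44.4% for Fn1, and Bgn and Sparc had all of theirs there. Divided by length, the 3′ UTR of Thbs1 held 4.75 short regions per kb, that of Fn1 5.78, that of Bgn 4.39 and that of Sparc 4.60. Coding sequence held 1.99 per kb in Thbs1, 0.673 in Fn1 and 0 in Bgn and Sparc. The 13 other genes with 5 or more Dtt regions held 1.26 short regions per kb of 3′ UTR and 0.682 per kb of coding sequence when pooled, so a higher density in the 3′ UTR was not particular to the 4 genes. Their own densities rest on the number of regions that chose them. With 4 to 10 regions in each UTR, these densities carry a wide counting error, and no order among them was read.

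A gap of 2 bp often cannot be placed at 1 position. If the bases beside it repeat, several placements give the same joined sequence, and boundaries that span all of them still describe 1 gap. Most short regions of the 4 genes were wider than that. In 33 of 36, or 91.7% (Wilson interval 78.2 to 97.1%), the boundaries held more placements than any 1 gap could give. The share was 43.4% over all short regions of the list and 39.2% (159 of 406) among the other genes. In the 13 other genes with 5 or more Dtt regions it was 69.4% (25 of 36, 53.1 to 82%), an interval that overlaps that of the 4 genes. RSW joins reads of equal splice length whose boundaries lie within 27 bp, so a listed region can hold several gaps by construction. Most of the 4 genes were chosen by their number of regions, so their share is not independent of the choice. In all 9 short regions of Fn1 and all 5 of Sparc, in 15 of 17 of Thbs1 and in 4 of 5 of Bgn, a single 2 to 9 bp gap did not account for the boundaries.

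The distance between boundaries sets the number of placements, so it describes the same trait and is no separate support. Its median was 34 bp in the short regions of the 4 genes, 21.5 bp in those 13 genes and 15 bp in the list. By gene the median was 36 bp for Thbs1, 22 bp for Fn1, 39 bp for Bgn and 34 bp for Sparc. The widest, in Bgn, spanned 110 bp, which is also the widest in the list. It rests on 2 reads, and of its 109 placements at most 12 give 1 joined sequence. The Thbs1 region with 7 reads spanned 48 bp, and at most 4 of its 47 placements give 1 sequence. The Fn1 region with 5 reads spanned 50 bp, with at most 4 of 49. The boundaries of these regions therefore do not define 1 removed sequence. Among the 4 genes' regions with 5 or more reads, the Sparc region with 23 reads came closest to 1 gap.

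**Figure D3:**
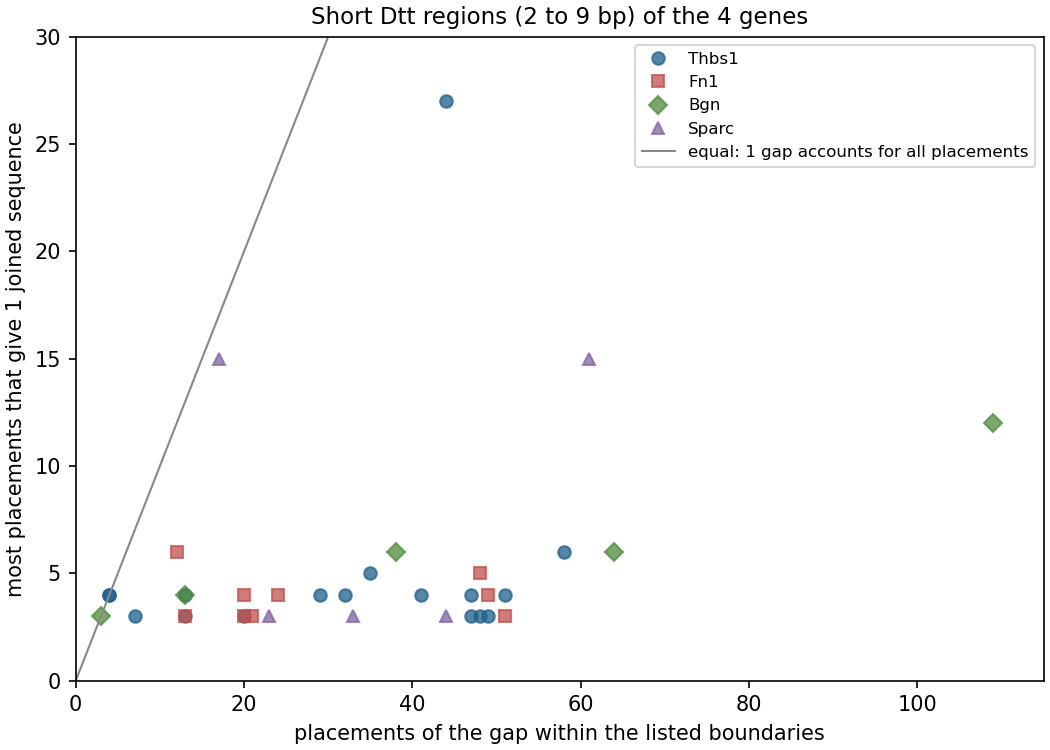
Each point is 1 short Dtt region of the 4 genes, with the number of placements of its gap within the listed boundaries (horizontal axis) and the most of these that give 1 joined sequence (vertical axis); the line marks equality. Of 36 regions, 3 lie on the line, 2 of Thbs1 that coincide and 1 of Bgn; the high points off it are the 4 bp region of Thbs1 with 27 of 44 and the Sparc regions with 15 of 17 and 15 of 61.

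The share of short regions at a single-base run depended on how a run was defined. A run of 5 or more equal bases lay within the boundaries of 4 of the 36 short regions, or 11.1% (Wilson interval 4.41 to 25.3%), beside 19.5% of the list. These were the Sparc pair at its 16 A and 2 regions of Thbs1 at a run of 5 A. With the 10 bp outside the boundaries included, the share was 22.2% (8 of 36, 11.7 to 38.1%), beside 27.6%. For runs of 4 or more within the boundaries it was 44.4% (16 of 36, 29.5 to 60.4%), beside 33.7%. Each of the 3 intervals takes in the share of the list. The sequence CTGCAG, which is part of the Xbp1 cut site, was searched on the mRNA strand within the boundaries and 10 bp on each side. It was found in 0 of 36, an interval up to 9.64%, beside 2.04% of the short regions of the list. This interval takes in the share of the list.

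The 11 longer Dtt regions fell into 2 kinds. GT-AG ends, the dinucleotides at which the spliceosome cuts almost all introns, were found in 6, or 54.5% (Wilson interval 28 to 78.7%). Over the whole list the share was 89.7% (1875 of 2091), and among the other genes it was 89.9%. Among regions of 50 bp and over it was 75% (6 of 8, 40.9 to 92.9%), beside 91.2% of the list, and this interval takes in the share of the list. The contrast with the list therefore rests on the 3 regions of 14 to 26 bp. The remaining 5 were the AC repeat pair of Bgn, a pair in the 3′ UTR of Fn1, and a Thbs1 region at an intron. The median length was 505 bp, beside 1376 bp in the list. All 11 had 2 reads, except the 14 bp region of Bgn with 3. All of them therefore fall in the range of reads in which the authors propose that regions are likely false positives. Each of the 6 with GT-AG ends used at least 1 annotated splice site of its gene. Both sites were annotated in 2 of them, both in Bgn. GT-AG regions of other genes in the list also used annotated sites. No share over the whole list is given for this trait, so the count is a description and is not read as particular to these genes.

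The GT-AG regions of Bgn each skipped 1 exon. The 1292 bp region removed chrX:70736770-70738061, joining exon 3 to exon 5. It left out exon 4, of 214 nt, which does not keep the reading frame. The 801 bp region removed chrX:70737501-70738301, joining exon 4 to exon 6. It left out exon 5, of 111 nt, and kept the frame. Both ends of both are shown on the plus strand, with the first or last 2 removed bases in capitals, because they are the only junctions of the 4 genes in the Dtt list made wholly of known sites. Their windows are chrX:70736760-70736789, chrX:70738042-70738071, chrX:70737491-70737520 and chrX:70738282-70738311.
Bgn 1292 bp, upstream end: gcacctctacGTaagcctcctcctgcctcc
Bgn 1292 bp, downstream end: tcacaggacttctctcctAGagatgggcgg
Bgn 801 bp, upstream end: aactgcattgGTgagactagtctgtacctt
Bgn 801 bp, downstream end: gcatgttctcttctgggtAGatctccctga
The second begins at exon 4, which the first leaves out, so the reads of these regions come from different molecules.

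The 3 GT-AG regions of Fn1 each paired 1 annotated site with an unannotated one. The 1030 bp region, chr1:71649204-71650233, began at the annotated end of exon 33 and ended 132 nt before exon 34. Exon 33, of 270 nt, is the alternatively spliced extra domain A exon, and it is absent from another annotated transcript of the gene. The 132 intronic nt keep the frame in length and hold 1 in-frame stop codon. The 683 bp region, chr1:71687043-71687725, began at the end of exon 9 and ended 24 nt before exon 10. Those 24 nt keep the frame and hold 0 in-frame stops. The 828 bp region, chr1:71645038-71645865, began inside exon 38 and ended at the annotated start of exon 39, so that 77 nt of exon were lost and the frame was not kept. The unannotated end of each is shown on the minus strand, with the GT or AG in capitals, from chr1:71649194-71649223, chr1:71687033-71687062 and chr1:71645846-71645875.
Fn1 1030 bp, downstream end: tttattatctgtttgtgcAGactctcctgg
Fn1 683 bp, downstream end: ttccatggctgtttaccaAGtgtttctcct
Fn1 828 bp, upstream end: acattatcaaGTatgagaagcctggatccc
Exons 33 and 38 also held a 2 bp region each, and the one in exon 38 overlapped the 828 bp region.

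Thbs1 had 1 GT-AG region of the same form. The 320 bp region, chr2:117945211-117945530, began at the annotated end of exon 12 and ended 22 nt before exon 13, and these 22 nt do not keep the frame. Its other longer region, of 505 bp, removed chr2:117943393-117943897. The annotated intron between exons 8 and 9 of Thbs1-001 is 504 nt long, chr2:117943394-117943897, so the region equals this intron plus 1 exonic base. The gap can slide by 1 base, and neither placement has GT-AG ends. The ends of both are shown from chr2:117945511-117945540, where capitals mark the last 2 removed bases, and from chr2:117943383-117943412, where capitals mark the first 3.
Thbs1 320 bp, downstream end: ttttagacattctgtgatAGcatcgggata
Thbs1 505 bp, upstream end: tgacaaaagaTGTaagcatcatggctgcca
In the second, the annotated intron begins at the GT that follows the first capital.

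**Figure D4:**
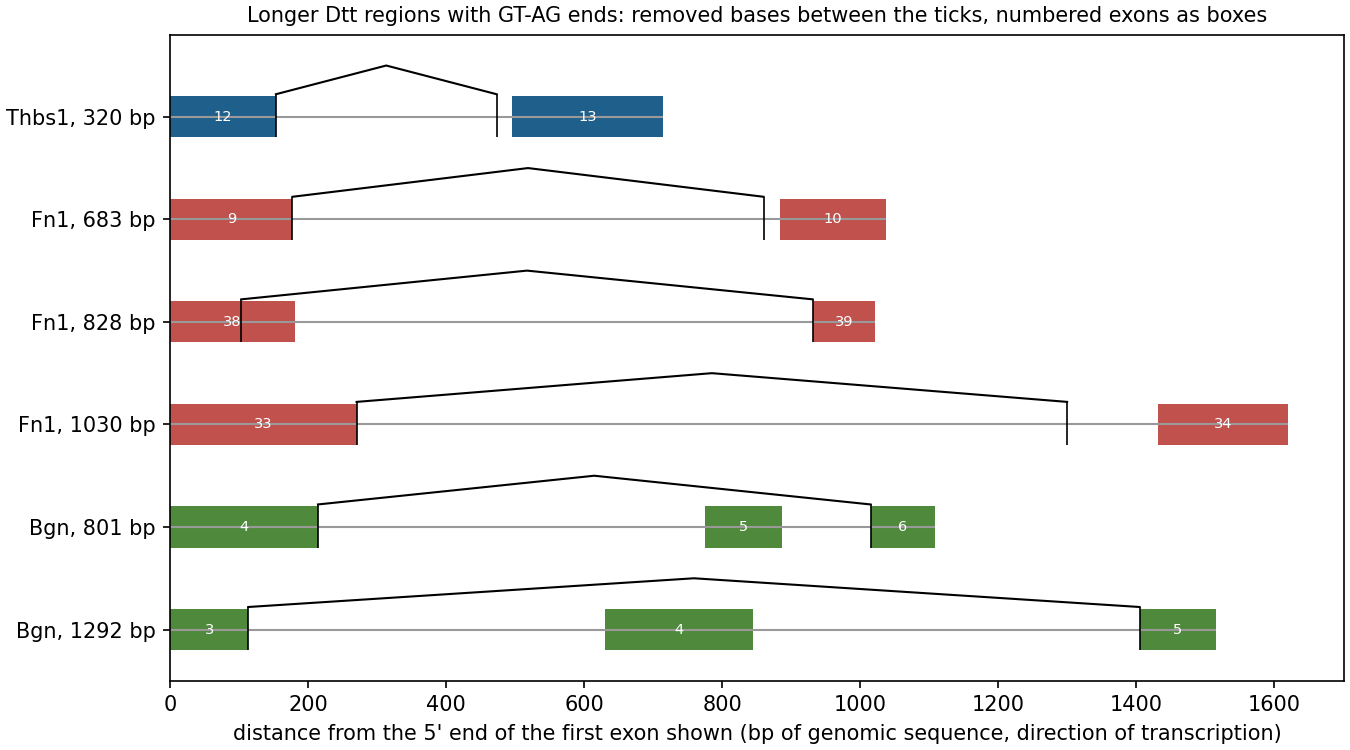
The 6 longer Dtt regions with GT-AG ends, each drawn in the direction of transcription from the 5′ end of the first exon shown (horizontal axis, bp of genomic sequence); boxes are numbered exons, and ticks joined by a peaked line mark the removed bases. Bgn regions skip exon 4 or exon 5, the 320, 683 and 1030 bp regions end before the next exon, and the 828 bp region begins inside exon 38.

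The longer regions in the 3′ UTR of Fn1 lay between short direct repeats. The 24 bp region, chr1:71632462-71632485, is flanked by a repeat of 5 bases. The 114 bp region, chr1:71632449-71632562, is flanked by a repeat of 4 bases. Loss of 1 copy and the bases between gives each joined sequence. Repeats are in capitals on the minus strand, from chr1:71632462-71632490 for the first and from chr1:71632553-71632582 and chr1:71632439-71632468 for the copies of the second.
Fn1 24 bp: GGAAAcacaggtagccaactaggaGGAAA
Fn1 114 bp, first copy: gttggtcaccctgttcTGCTtcagggtttc
Fn1 114 bp, second copy: gaggaaatgtactgaaTGCTagtacccaag
The boundaries of both regions overlap, and they also overlap those of the 2 bp region with 5 reads.

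Overlaps of this kind reduced the number of separate places. In Fn1, 5 regions overlapped another and the 14 regions came to 11 places. In Bgn, 6 overlapped another and the 9 came to 5 places. In Sparc, 2 overlapped and the 5 came to 4. In Thbs1 none of the 19 did. The order of the 4 genes by places was therefore Thbs1, Fn1, Bgn and Sparc, as by regions, with Bgn and Sparc differing by 1.

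In the Tg list, the only region of the 4 genes was 1 of Bgn with 2 reads and a length of 6105 bp. Thbs1, Fn1 and Sparc had 0 regions there. With GT-AG ends it removed chrX:70729102-70735206, a placement 3 bases from the listed boundaries, and this is an annotated intron of the transcript Bgn-005 that begins at exon 1. Its ends are shown on the plus strand with the GT and AG in capitals, from chrX:70729092-70729121 and chrX:70735187-70735216.
Bgn 6105 bp, upstream end: ccctccccagGTagggcctgctcacgccgg
Bgn 6105 bp, downstream end: ctgccctgtttctctggcAGcaatctactc
None of the Dtt regions of Bgn lay there. The Tg and Dtt lists differ in agent, in read length (35 and 79 nt), in depth and in knockout allele at once, and were not compared further.

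The genes most like the 4, by a rule of 5 or more Dtt regions, were 13 others. Together they had 69 regions, of which 36 were short, or 52.2%. The cytoskeletal genes Actg1, with 7 regions, and Actb, with 5, had short regions only, as did Hspa5, the ER chaperone BiP, with 5. Vim, for the intermediate filament vimentin, and Acta2, for smooth muscle actin, had 4 short of 5. Col1a1, for the alpha 1 chain of type I collagen, had 3 short of 6, and Pdia4, an ER protein disulfide isomerase, and Tagln2 had 3 of 5. At the other end, Aebp1, Cask and Qrich1 had 5 longer regions and no short one, Igfbp2 had 1 short of 6 and Eif4g1 1 of 5. Sparc, with 5 short of 5, was thus matched in number and length by Actb and Hspa5. In reads, Actb came nearest to it, with up to 19 in a region, while no region of Hspa5 had more than 2. Across the Dtt list, 1623 of 1990 genes, or 81.6%, had a single region.

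Among 56 other genes of the matrix, its receptors and its assembly, 26 had a Dtt region, or 46.4%, with 55 regions in all. Over all 22380 protein-coding genes of the annotation the share was 8.78%, but that total takes in genes that fibroblasts do not express, and expression is not in the lists, so nothing was read from the difference. Of the 55 regions, 29 were short, or 52.7%, beside 17.4% in the list. GT-AG ends were found in 19 of the 26 longer ones, beside 89.7% in the list. By role, with the groups too small to be set against one another, 5 of 11 thrombospondins and matricellular proteins had a region, 5 of 13 fibrillar glycoproteins, 2 of 6 proteoglycans, 7 of 10 collagens, 3 of 8 receptors and 4 of 8 assembly and processing genes. The matricellular Ctgf had 3 regions, all short, and Tnc, for tenascin C, had 3, all longer. Thbs2 and Thbs3, the relatives of Thbs1, and Dcn and Lum, relatives of Bgn, had none listed. Of the fibrillar group, Fbln2 and Ltbp1 had 3 each, 2 of them short. Of the collagens, Col1a1 had 6, of which 3 were short, and Col4a1 had 4, of which 2 were short.

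Among the genes of collagen assembly, Lox, which cross-links collagen, had 4 regions, all short and all in the 3′ UTR, as in Sparc, with 10 reads in all. Loxl2, of the same family, had 3, all longer. Serpinh1, the collagen chaperone, had 4, of which 1 was short. In the Tg list, Cyr61 and Ltbp1 were the only genes of the 56 with a region. Of the 26 genes with a Dtt region, 9 had 3 or more, beside 4.72% of the 1990 genes in the list.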

How the data were processed

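Poly-A mRNA of 4 MEF libraries was sequenced as single-end reads. The authors aligned reads to mm9 and UCSC junctions with Bowtie, trimmed 2 bases from each unmapped read, split it into parts of at least 11 nt and mapped these without mismatches. Pairs within 40 kb and at least 2 bp apart were joined by splice length when their boundaries lay within 11 bp (Tg) or 27 bp (Dtt). By the authors' methods, regions within 5 bp of a known UCSC junction or matched in the KO library were left out. The annotation used here was another one, GENCODE vM1. By it, the 505 bp region of Thbs1 lies 1 base from an intron and the Tg region of Bgn is an intron, yet both are listed. Why they were kept was not tested. The deposited values are raw counts of supporting reads in the Het library, not normalized, with splice lengths and boundaries in bp. KO columns hold no number.

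Regions were read by gene name. The removed bases were taken to lie between the boundaries, and every placement was read from the mm9 sequence and GENCODE vM1, on the transcript with the longest coding sequence. Gene names matched the annotation for 2482 of 2533 Dtt and 53 of 55 Tg regions, and 43 and 2 others were matched by position. Only the placement of gaps and the finding of GT-AG ends and single-base runs were tested, on simulated sequence. With 1 library per group no test was possible. Shares have 95% Wilson intervals, which cover counting error alone, because without molecular identifiers several reads may come from the same molecule. The depth of the libraries is not in the lists, which hold 6436 and 135 supporting reads.

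The members, the list of 56 related genes and the limits were chosen with earlier results of these data known. Named genes are the 4 members, others with 5 or more Dtt regions, and related genes with 3 or more Dtt regions or any Tg region. Thbs2, Thbs3, Dcn and Lum were named in addition after their values were seen. Xbp1 and Rps9 were named for scale. Alternatives were another read minimum, other length limits, joining of overlaps, other definitions of a wide region or run, and leaving out Thbs1. Python 3.11.15, scipy 1.17.1 and matplotlib 3.10.9 were used.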

Additional observations from a re-analysis of the deposited data

How the results depend on the processing

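Of 39 alternative values, 27 stayed within a limit and 12 did not. For a count the limit was 1.5 times the reported one, and for a share it was the 95% Wilson interval of the reported one. These intervals are wide at such numbers, so shares within them could still change much, as the GT-AG share did from 54.5 to 75% and the share at runs from 11.1% to 5.56% or 22.2%. Most of the 12 came from asking for at least 3 supporting reads. Thbs1 then had 6 regions in place of 19 and 6 short ones in place of 17, Fn1 had 1 and 1, Bgn had 1 and 0, and Sparc had 3 and 3. The share of short regions over the 4 genes was then 90.9% (10 of 11). No share of the whole list at this minimum is given, so this value is not to be set against that of all listed regions. With overlapping regions joined, Bgn had 5 regions and 3 short ones. A single-base run of 4 or more, in place of 5, was found at 44.4% of short regions. Without Thbs1 the short share was 67.9%. The numbers of regions of Thbs1, Fn1 and Bgn therefore rest mostly on regions with 2 reads, the minimum listed. No paired analysis was possible because no group has a second library and no KO reads are listed. Without replicates, none of these values has an error between cultures, and the lists cannot show regions present in both genotypes.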
